A study of Mus musculus with 6 samples.

Results

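The genes described here are 8 hepatic nuclear factors and partner regulators, out of 19938 mouse genes measured with a probe set of their own. They are Hnf4a, Hnf4g, Foxa2, Foxa3, Cebpa, Nr1h4 (the bile acid receptor FXR), Nr5a2 (LRH-1) and Nr0b2 (SHP). All 8 were found on the arrays, each with 1 probe set. The members were selected on the measured values of these same arrays, the log2 intensities in AGR and NME cells. Their own differences are therefore given as a description, without p-values.

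AGR cells were compared with NME cells, each line on 3 arrays of the Affymetrix Mouse Gene 1.0 ST type. NME cells are the parental line, normal murine mammary gland cells (NMuMG) that overexpress EGFR, and they are sensitive to AG1478, an inhibitor of the EGFR kinase. AGR cells derive from them, with the same EGFR overexpression, through 1 colony of NME cells that grew in 3D culture with 1 µM AG1478, was picked by hand and was then expanded in 2D culture, so that AGR cells stand for a single isolate. The authors state that they kept their resistant lines free of drug once these were established. Both lines were grown in DMEM with serum and insulin, and the sources do not say whether the 3 arrays of a line came from separate cultures, so that the errors measure only the spread between these arrays.

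Hepatocyte nuclear factors form a network in which each protein binds near the genes of several others. HNF4α, a nuclear receptor, and C/EBPα, a leucine zipper protein, switch on genes for plasma proteins and for lipid and glucose metabolism in liver. The FOXA proteins are forkhead factors that open chromatin at such genes, in liver and also in gut, pancreas and lung. FXR senses bile acids, SHP is induced by it, and SHP in turn holds back LRH-1 and HNF4α, which drive bile acid synthesis. In mammary gland the network is not the defining one, and FOXA1 is the forkhead factor known for its role there.

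RefSeq promoter windows (build GRCm38.p6, 250 bases before to 50 bases after each annotated start) were found for 7 of the 8 members, with 11 windows in all. Both windows of Hnf4a are shown, an upstream one and a downstream one, because Hnf4a had the largest difference of the members and its transcripts can begin at either. The arrays read all Hnf4a transcripts with 1 probe set and so do not separate these starts. The third sequence is the window of Nr5a2 that holds the C/EBP motif, marked in capitals. All are printed 5′ to 3′ on the strand of the gene.
Hnf4a, chr2:163506607-163506906, plus strand: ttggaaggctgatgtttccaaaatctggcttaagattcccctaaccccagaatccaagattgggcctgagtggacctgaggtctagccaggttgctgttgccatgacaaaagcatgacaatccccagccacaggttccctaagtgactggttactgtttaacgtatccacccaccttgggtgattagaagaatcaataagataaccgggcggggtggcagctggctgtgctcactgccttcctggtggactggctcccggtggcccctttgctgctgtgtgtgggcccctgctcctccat
Hnf4a, chr2:163546905-163547204, plus strand: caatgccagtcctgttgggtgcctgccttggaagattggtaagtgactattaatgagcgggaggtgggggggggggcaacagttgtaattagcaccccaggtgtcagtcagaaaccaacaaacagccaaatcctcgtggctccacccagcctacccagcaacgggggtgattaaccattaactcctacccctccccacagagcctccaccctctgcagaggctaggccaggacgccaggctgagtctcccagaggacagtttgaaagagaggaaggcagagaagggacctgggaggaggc
Nr5a2, chr1:136953581-136953880, minus strand: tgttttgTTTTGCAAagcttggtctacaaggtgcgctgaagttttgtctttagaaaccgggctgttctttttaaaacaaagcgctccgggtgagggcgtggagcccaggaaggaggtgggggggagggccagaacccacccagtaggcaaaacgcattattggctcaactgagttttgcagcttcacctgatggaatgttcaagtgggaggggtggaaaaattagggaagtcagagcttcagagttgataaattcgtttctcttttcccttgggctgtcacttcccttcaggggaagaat
The motif in the Nr5a2 window stood at bases -243 to -236 from the annotated start, as the reverse complement. A match in letters is not a binding site.

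Motifs of the members' own proteins were looked for in the 11 windows. On either strand, no member window held the HNF4 motif CAAAGTCCA, the FOXA motif TGTTTAC or TGTTTGC, the LRH-1 motif CAAGGTCA or the FXR motif GGTCANTGA. The C/EBP motif TTGCNNAA occurred in 1 member window, of Nr5a2 (9.09% of the 11). Among all promoter windows the shares with a match were 0.475% for HNF4, 8.48% for FOXA, 10.8% for C/EBP, 1.56% for LRH-1 and 0.84% for FXR. At these shares 11 windows would hold few matches or none, and no match says only that these letters are not in this window.

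Of the 8 members, 7 had a lower mean in AGR cells than in NME cells, and for the same 7 genes every AGR array lay below every NME array. Over all 19938 genes, 18.5% had every AGR array below every NME array and 17.9% had every AGR array above. By limma with an adjusted p under 0.05, 7 members were called lower and 0 higher (also 0 higher at an unadjusted p), beside 11.6% of all genes called lower and 12.6% called higher. Only Hnf4a was lower by more than 2-fold, and no member was higher by more than 2-fold, beside 1.5% of all genes called lower and 1.5% called higher with that fold change. Since these arrays chose the members, nothing is read from the member counts. The median log2 difference, AGR minus NME, was -0.62 over the 8 members and -0.02 over all genes.

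**Figure D1:**
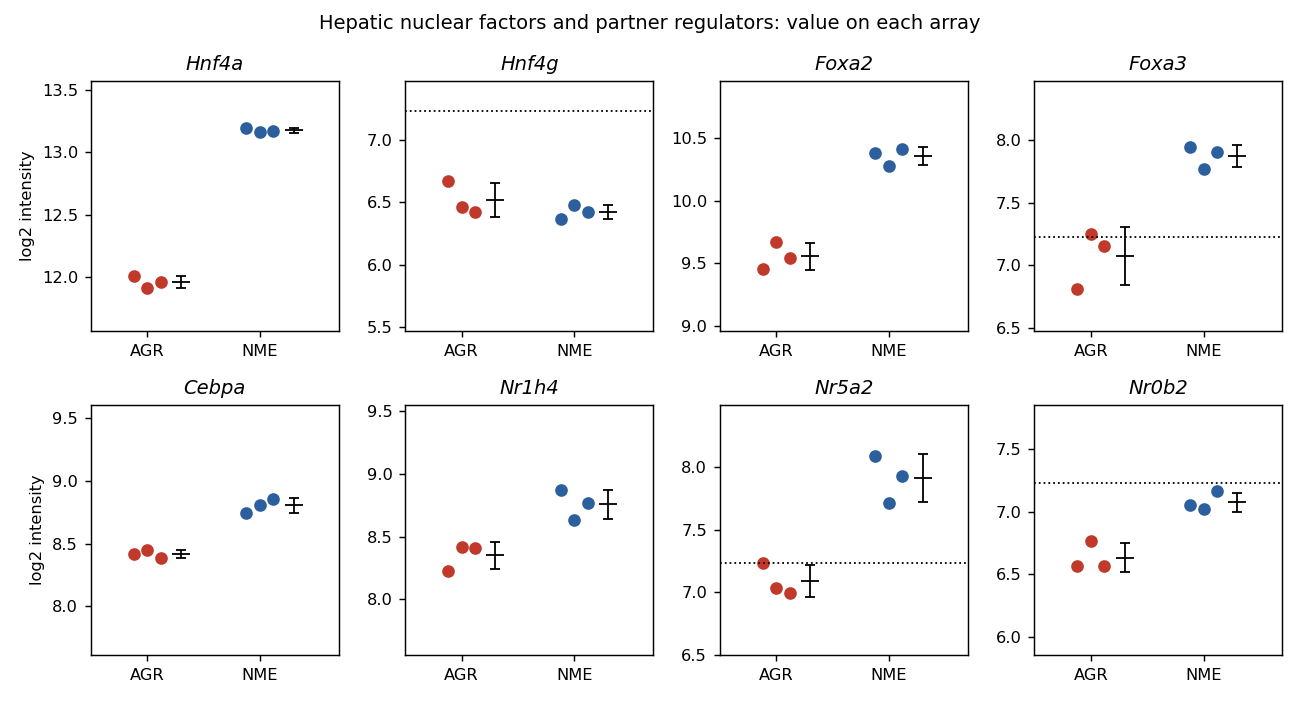
Log2 intensity of each member on each array, with AGR arrays (red) left of NME arrays (blue), and the mean and SD (n = 3) beside the points. Each panel spans 2 log2 units, and the dotted line, where it falls in the panel, is the dim level of 7.23. The AGR points lie below the NME points in every panel other than that of Hnf4g.

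No detection calls were used, so a dim level was set from 1194 odorant and vomeronasal receptor genes, which are not known to be active in mammary epithelium. Their median was 5.18 on the log2 scale, and their 95th percentile, 7.23, was taken as the dim level. Of all genes, 34.1% had a mean at or below it. A value at or below the dim level may hold little but background, and levels of different probe sets are not set against each other here.

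Hnf4a, which encodes the nuclear receptor HNF4α, had log2 intensities of 12.01, 11.91 and 11.96 on the AGR arrays, against 13.19, 13.16 and 13.17 on the NME arrays. On the deposited linear scale these were 4136, 3859 and 3992 in AGR cells, against 9377, 9150.0 and 9203 in NME cells. All AGR arrays were low and all NME arrays high, with a gap of 1.15 between the nearest arrays of the cell lines. The means were 11.96 ± 0.05 in AGR cells and 13.17 ± 0.02 in NME cells (SD, n = 3 each), a log2 difference of -1.21 (SE 0.04). The AGR level was thus 0.432 times the NME level, and the transcript stayed far above the dim level in both lines. Of all genes, 97.9% had a smaller size of difference.

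Hnf4g, the paralog of Hnf4a known from gut and kidney, had log2 intensities of 6.67, 6.46 and 6.42 on the AGR arrays, against 6.36, 6.48 and 6.42 on the NME arrays. The arrays of the cell lines overlapped, and all 6 lay below the dim level. The means were 6.52 ± 0.13 in AGR cells and 6.42 ± 0.06 in NME cells (SD, n = 3 each), a log2 difference of 0.10 (SE 0.07) that is smaller than the SD in AGR cells.

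Foxa2, a forkhead factor of endoderm and liver, had log2 intensities of 9.45, 9.67 and 9.54 on the AGR arrays, against 10.38, 10.27 and 10.41 on the NME arrays. Every AGR array was the lower, with 0.60 between the nearest arrays, and all 6 were above the dim level. The means were 9.56 ± 0.11 in AGR cells and 10.36 ± 0.07 in NME cells (SD, n = 3 each), a log2 difference of -0.80 (SE 0.07), or 0.575 times the NME level. Foxa3, a forkhead factor of liver and gut, had log2 intensities of 6.81, 7.25 and 7.16 on the AGR arrays, against 7.94, 7.77 and 7.90 on the NME arrays. The NME arrays were all above the dim level, and 1 of the 3 AGR arrays lay just above it. Its means were 7.07 ± 0.23 in AGR cells and 7.87 ± 0.09 in NME cells (SD, n = 3 each), a log2 difference of -0.80 (SE 0.12). Because the AGR mean of Foxa3 was at or below the dim level, its fold is a bound, at least 1.55-fold higher in NME cells when AGR arrays are raised to that level.

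Cebpa, which encodes the zipper protein C/EBPα of liver, fat and myeloid cells, had log2 intensities of 8.42, 8.45 and 8.38 on the AGR arrays, against 8.75, 8.81 and 8.86 on the NME arrays. The AGR arrays lay close together and below all NME arrays, with a gap of 0.30. The means were 8.42 ± 0.03 in AGR cells and 8.80 ± 0.06 in NME cells (SD, n = 3 each), a log2 difference of -0.39 (SE 0.05), or 0.763 times the NME level. That is the smallest size of difference among the 7 lower members, and 85.5% of all genes had a smaller one.

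Nr1h4, the bile acid receptor, had log2 intensities of 8.23, 8.42 and 8.41 on the AGR arrays, against 8.87, 8.64 and 8.76 on the NME arrays. The lines did not overlap, although only 0.22 separated the nearest arrays, the narrowest gap of the 7. The means were 8.35 ± 0.11 in AGR cells and 8.76 ± 0.12 in NME cells (SD, n = 3 each), a log2 difference of -0.41 (SE 0.08), or 0.755 times the NME level. Nr0b2, the small partner that lacks a DNA-binding domain and is induced by FXR, had log2 intensities of 6.57, 6.77 and 6.56 on the AGR arrays, against 7.05, 7.02 and 7.16 on the NME arrays. All 6 values were below the dim level, so the order of the lines rests on a signal in the range of the receptor genes. Its means were 6.63 ± 0.12 in AGR cells and 7.08 ± 0.08 in NME cells (SD, n = 3 each), a log2 difference of -0.44 (SE 0.07), and no fold is given.

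Nr5a2, the orphan receptor LRH-1 that SHP represses, had log2 intensities of 7.23, 7.04 and 6.99 on the AGR arrays, against 8.09, 7.71 and 7.93 on the NME arrays. The NME arrays were all above the dim level, and the AGR arrays lay at about that level or below it. The means were 7.09 ± 0.13 in AGR cells and 7.91 ± 0.19 in NME cells (SD, n = 3 each), a log2 difference of -0.82 (SE 0.11), which is the second in size after that of Hnf4a. With AGR arrays raised to the dim level, Nr5a2 was at least 1.60-fold higher in NME cells.

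The difference in means was larger than the SD of either cell line in each of the 7 lower members, by 24.2 times the larger SD in Hnf4a and by 3.44 times in Foxa3. No single AGR array was the lowest throughout: AGR replicate 1 was lowest for Foxa2, Foxa3 and Nr1h4, replicate 2 for Hnf4a, and replicate 3 for Hnf4g, Cebpa, Nr5a2 and Nr0b2. The largest departure of 1 array from the others of its line was 0.39 on the log2 scale, in AGR replicate 1 for Foxa3. In all, 4 members were at or below the dim level in AGR cells (Hnf4g, Foxa3, Nr5a2 and Nr0b2) and 2 were in NME cells (Hnf4g and Nr0b2).

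**Figure D2:**
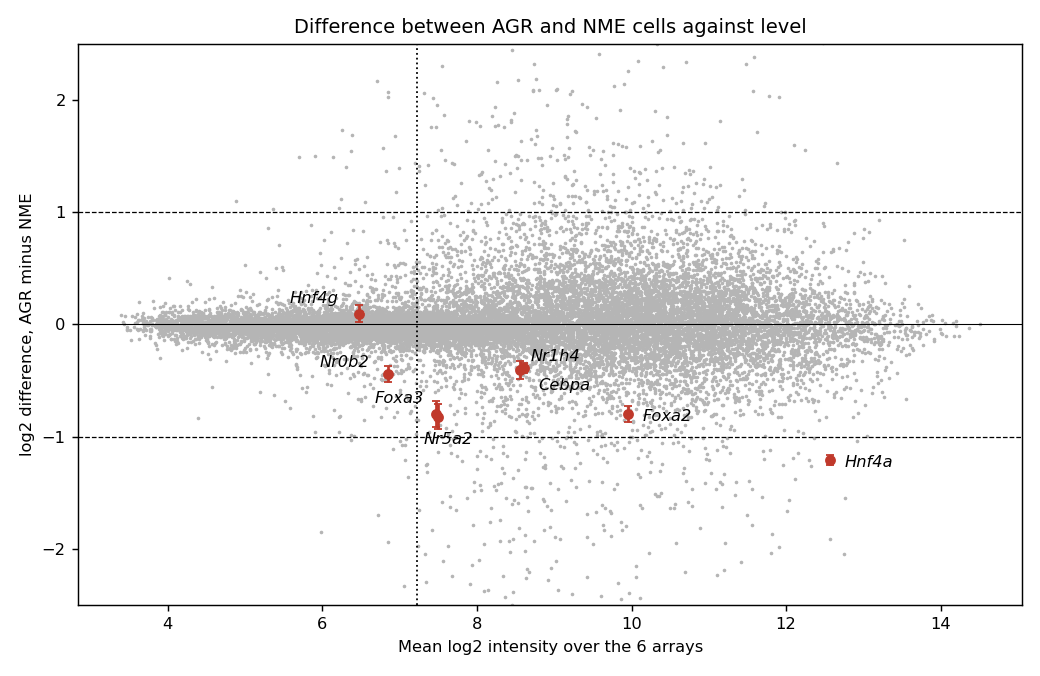
Log2 difference (AGR minus NME) against the mean log2 intensity over the 6 arrays, for all genes (grey) and the 8 members (red, with the SE). Dashed lines mark a 2-fold difference and the dotted line the dim level of 7.23, and 66 genes lie beyond the vertical axis. Of the members, Hnf4a alone passes a dashed line, at -1.21.

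Across all probe sets, arrays of the same line had correlations of 0.995 to 0.997 and arrays of different lines 0.986 to 0.988. In 36 genes AGR replicate 2 stood more than 2-fold away from the rest of its line, AGR replicate 1 did so in 7 genes and every other array in at most 1, none of them a member. Some values are the same on all 3 arrays of a line (495 probe sets in AGR cells and 542 in NME cells), which no member showed. Egfr, which both lines overexpress, had means of 12.54 ± 0.19 in AGR cells and 12.31 ± 0.07 in NME cells (SD, n = 3 each, limma adjusted p = 0.139), on a probe set designed for the mouse gene.

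The gene lists from here on were chosen with earlier results of these data known, so their counts and shares are descriptions. Relatives of the members gave a mixed picture. Of 9 measured family relatives, 2 were called lower (22.2%) and 1 higher (11.1%) by limma at an adjusted p under 0.05, and 6 were not called. Among all genes, 11.6% were called lower and 12.6% higher. Foxa1, the forkhead factor known in mammary epithelium, had log2 intensities of 9.69, 9.95 and 9.74 on the AGR arrays, against 8.51, 8.50 and 8.42 on the NME arrays. All AGR arrays were the higher, which is the opposite order to Foxa2 and Foxa3. Its means were 9.79 ± 0.14 in AGR cells and 8.48 ± 0.05 in NME cells (SD, n = 3 each), a log2 difference of 1.31 (SE 0.08, limma adjusted p = 5.88e-05). Nr1h3, the oxysterol receptor LXRα related to FXR, fell by 0.71 on the log2 scale, with 7.99 ± 0.07 in AGR cells and 8.70 ± 0.09 in NME cells (SD, n = 3 each, limma adjusted p = 3.75e-04). Cebpg, a C/EBP protein without a strong activation domain, was lower by a smaller margin relative to its spread, with 10.65 ± 0.35 in AGR cells and 11.21 ± 0.06 in NME cells (SD, n = 3 each, limma adjusted p = 0.049). Its call was lost under 9 of 15 other settings. Cebpb, the C/EBP protein of acute responses and mammary differentiation, averaged 9.87 ± 0.18 in AGR cells and 10.18 ± 0.09 in NME cells (SD, n = 3 each, limma adjusted p = 0.0662) and did not pass.

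Other regulators of liver development and liver genes were lower where they were called. Of 19 measured, 9 were called lower and 0 higher (47.4% lower, beside 11.6% of all genes), with a median log2 difference of -0.17. The count of higher genes was also 0 at an unadjusted limma p under 0.05 and by the methods' two-sided test. Prox1, a homeobox factor of hepatoblasts that interacts with HNF4α and LRH-1, had log2 intensities of 6.76, 7.20 and 6.97 on the AGR arrays, against 9.09, 8.93 and 9.22 on the NME arrays. It was present in NME cells and at or below the dim level on every AGR array. Its log2 difference was -2.10 (SE 0.12, limma adjusted p = 6.21e-05), which is at least 3.61-fold higher in NME cells. Hhex, a homeobox factor needed for the liver bud, fell by 0.96 on the log2 scale, with 10.15 ± 0.16 in AGR cells and 11.11 ± 0.10 in NME cells (SD, n = 3 each, limma adjusted p = 5.17e-04). Rora, a nuclear receptor of circadian and lipid genes, fell by 0.82, with 8.30 ± 0.06 in AGR cells and a value of 9.12 that was the same on all 3 NME arrays (limma adjusted p = 5.2e-05). Atf5, a zipper protein abundant in liver, averaged 10.21 ± 0.47 in AGR cells and 10.96 ± 0.09 in NME cells (SD, n = 3 each, limma adjusted p = 0.0472), and 8 of 15 other settings lost this call. Named after its values were seen, Onecut1, the homeobox factor HNF6, averaged 7.81 ± 0.15 in AGR cells and 8.49 ± 0.20 in NME cells (SD, n = 3 each, limma adjusted p = 0.00617), a call lost under 1 of 15 other settings.

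Partners and cofactors of the nuclear receptors went both ways. Of 21 measured, 4 were called lower (19.0%, beside 11.6% of all genes) and 6 higher (28.6%, beside 12.6%), 11 were not called, and the median log2 difference was -0.01. The 4 lower calls fell to 2 under 7 of 15 other settings, among them leaving out any 1 array other than AGR replicate 2. Rxra, the partner with which FXR binds DNA, averaged 9.85 ± 0.06 in AGR cells and 9.68 ± 0.06 in NME cells (SD, n = 3 each), a log2 difference of 0.18 (SE 0.05, limma adjusted p = 0.0555). It missed the threshold here and passed it under 5 of 15 other settings. Nr2f2, the orphan receptor COUP-TFII that can occupy the same direct repeats as HNF4α, had log2 intensities of 10.35, 10.07 and 10.41 on the AGR arrays, against 9.34, 9.33 and 9.52 on the NME arrays. All AGR arrays were the higher, and the log2 difference was 0.88 (SE 0.10, limma adjusted p = 0.00102). Nr2f1, its close relative, was below the dim level in both lines, at 6.89 ± 0.12 in AGR cells and 6.78 ± 0.05 in NME cells (SD, n = 3 each, limma adjusted p = 0.339). The histone acetyltransferase Crebbp (log2 difference 0.58), the chromatin remodeler Smarca4 (0.43) and the deacetylase Hdac3 (0.37) were higher in AGR cells, with the call of Smarca4 lost under 1 other setting. The coactivators Ncoa3 (-0.61) and Ppargc1b (-0.27) were lower.

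**Figure D3:**
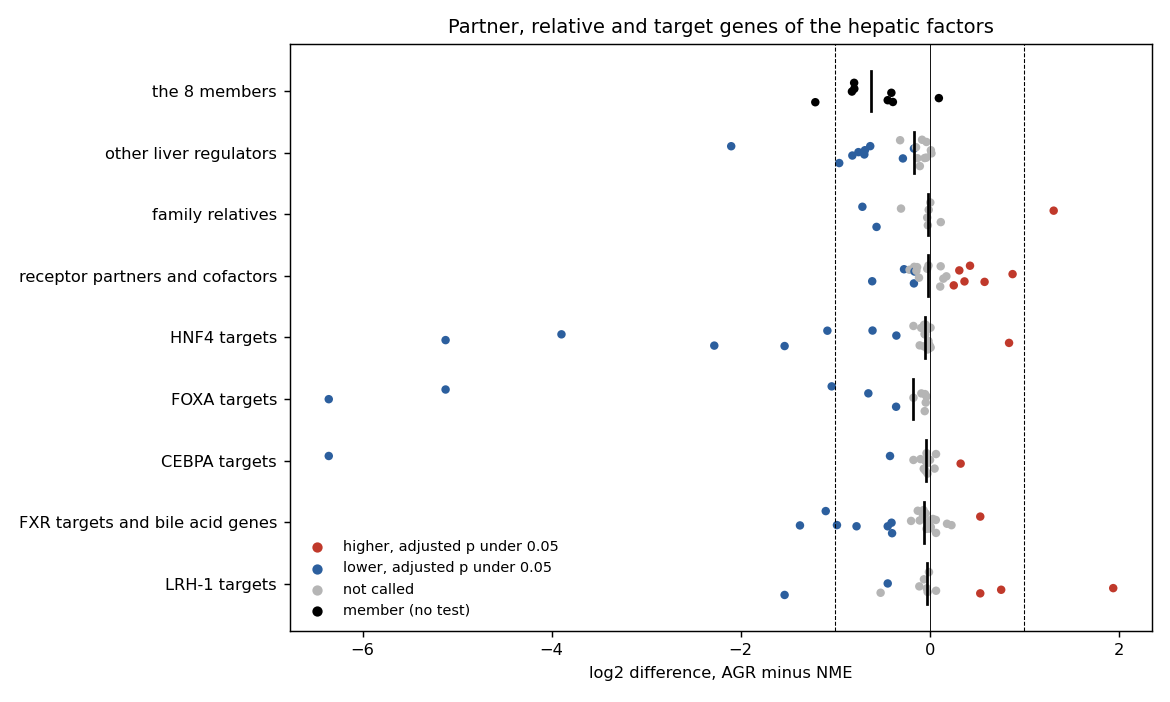
Log2 difference (AGR minus NME) of each gene in the lists of partners, relatives and targets, with the 8 members in the top row. Red points were called higher and blue points lower by limma at an adjusted p under 0.05, grey points were not called, short vertical bars are medians, and dashed lines mark a 2-fold difference. The points farthest to the left are Alb at -6.36 and Ttr at -5.12. The medians of the lists below the members lie between -0.17 and -0.01.

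The genes known as targets of HNF4α included some with very large differences. Of 25 measured, 7 were lower (28.0%, beside 11.6% of all genes), 1 was higher (4.0%, beside 12.6%) and 17 were not called, and 9 were at or below the dim level in both lines. The median log2 difference of the list was -0.05, close to that of all genes. Ttr, the thyroxine carrier transthyretin, had log2 intensities of 7.56, 7.62 and 7.14 on the AGR arrays, against 12.72, 12.31 and 12.65 on the NME arrays. It was far above the dim level in NME cells and near it in AGR cells, with a log2 difference of -5.12 (SE 0.16, limma adjusted p = 4.48e-06). Trf, the iron carrier transferrin, had log2 intensities of 7.31, 7.22 and 7.33 on the AGR arrays, against 11.29, 11.07 and 11.19 on the NME arrays. Like Ttr, it was close to the dim level in AGR cells alone, and its log2 difference was -3.90 (SE 0.07, limma adjusted p = 1.47e-06). Agt, the angiotensin precursor, fell by 2.28 on the log2 scale, with 7.78 ± 0.31 in AGR cells and 10.06 ± 0.11 in NME cells (SD, n = 3 each, limma adjusted p = 1.04e-04). Apoa1, the main protein of high-density lipoprotein, fell by 1.54, with 7.88 ± 0.18 in AGR cells and 9.42 ± 0.06 in NME cells (SD, n = 3 each, limma adjusted p = 7.26e-05). Apob, the scaffold of very-low-density lipoprotein, went the other way, with log2 intensities of 12.29, 12.31 and 12.32 on the AGR arrays, against 11.35, 11.55 and 11.50 on the NME arrays. Its log2 difference was 0.84 (SE 0.06, limma adjusted p = 1.31e-04), so that 2 apolipoprotein genes of the list moved in opposite directions.

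Among FOXA targets, 5 of 11 measured genes were lower by limma and 0 higher (45.5% lower), and the median was -0.17. None was higher at an unadjusted limma p under 0.05 or by the methods' two-sided test either. Alb, serum albumin, had log2 intensities of 7.002, 6.31 and 6.81 on the AGR arrays, against 13.13, 13.02 and 13.04 on the NME arrays. All AGR arrays were below the dim level and all NME arrays were bright, which makes Alb at least 57.1-fold higher in NME cells (log2 difference -6.36, SE 0.17, limma adjusted p = 2.09e-06). Besides Ttr, the others were Afp, the fetal albumin relative (-1.04), and the gut and pancreas homeobox genes Pdx1 (-0.65) and Cdx2 (-0.36), with the call of Pdx1 lost under 2 of 15 other settings. The list for CEBPA held 16 measured genes, of which 2 were lower (12.5%, beside 11.6% of all genes) and 1 was higher (6.2%, beside 12.6%). A filter on dim genes left out Cps1, and 1 was then lower. In both lines 10 of the 16 were at or below the dim level. The called genes were Alb, the urea cycle gene Cps1 (-0.42, near the dim level in NME cells and below it in AGR cells) and the fat cell receptor Pparg (0.33), whose call 4 of 15 other settings lost.

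Bile acid genes and FXR targets held 28 measured genes, with 7 called lower (25.0%), 1 called higher (3.6%) and 16 at or below the dim level in both lines. With a filter on dim genes, which was stricter than the dim level, 3 were called lower and 2 higher. That filter also removed Slc10a2 and Fetub, which were above the dim level on all 3 NME arrays. The 7 lower genes without the filter, and so the share of 25.0%, include the member Nr0b2 itself, which these arrays chose. Abcc2, a canalicular export pump for conjugates, had log2 intensities of 7.70, 7.79 and 7.83 on the AGR arrays, against 9.13, 9.03 and 9.28 on the NME arrays. The lines stood well apart, by a log2 difference of -1.37 (SE 0.07, limma adjusted p = 4.24e-05). Abcc3, a basolateral export pump, fell by 1.10 on the log2 scale, with 10.40 ± 0.07 in AGR cells and 11.50 ± 0.08 in NME cells (SD, n = 3 each, limma adjusted p = 5.03e-05). Slc10a2, the ileal bile acid importer, was below the dim level in AGR cells and at least 1.38-fold higher in NME cells (limma adjusted p = 7.6e-04). Fetub, a liver protease inhibitor, was likewise at least 1.24-fold higher in NME cells (limma adjusted p = 0.0078, lost under 1 of 14 other settings). Scarb1, the receptor for high-density lipoprotein, was the gene that went up, with 10.61 ± 0.11 in AGR cells and 10.08 ± 0.11 in NME cells (SD, n = 3 each, limma adjusted p = 0.00294).

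LRH-1 targets went both ways. Of 12 measured, 2 were lower (Apoa1 and the member Nr0b2, the second not tested with a filter on dim genes), 3 were higher (Scarb1 and the cyclins Ccne1 and Ccnd1), and 7 were not called. The shares were 16.7% lower, with the member Nr0b2 counted, and 25.0% higher, beside 11.6% and 12.6% of all genes. These arrays chose Nr0b2, and without it Apoa1 alone was lower. Ccne1, the cyclin of the step into S phase, had log2 intensities of 10.73, 9.88 and 10.57 on the AGR arrays, against 8.54, 8.39 and 8.43 on the NME arrays. AGR replicate 2 was the lowest of the AGR arrays and still lay above all NME arrays, and the log2 difference was 1.94 (SE 0.21, limma adjusted p = 7.9e-04). Ccnd1, the cyclin of G1 phase, had means of 13.91 ± 0.03 in AGR cells and 13.15 ± 0.01 in NME cells (SD, n = 3 each, limma adjusted p = 4.23e-05). Taking the lists as 125 genes without the members, 33 were lower (26.4%, beside 11.6% of all genes) and 12 higher (9.6%, beside 12.6%), while 80 were not called and the median was -0.05. The lists share genes, such as Alb, Ttr and Apoa1, so their counts are not separate observations. They were also chosen with earlier results of these data known, so nothing is read from their shares.

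The HNF4 motif was then looked for in all genes that differed by more than 2-fold at an adjusted p under 0.05, which are termed DEGs. Of 290 promoter windows of DEGs lower in AGR cells, 9 held CAAAGTCCA on either strand (3.1%), against 1 of 304 windows of DEGs higher in AGR cells (0.329%) and 0.48% of the windows of all measured genes. The sites are printed because they are the DEGs that carry the full motif of the member with the largest difference. Capitals mark the motif as it reads on the strand of the gene, with 8 bases on either side.
Cyp2c68, chr19:39741162-39741186, minus strand: cattgaaaCAAAGTCCAattggaag
Cyp2c67, chr19:39649151-39649175, minus strand: cattgagaCAAAGTCCAtttggaag
Cyp2c65, chr19:39060882-39060906, plus strand: tgttggaaCAAAGTCCActgggagg
Fhl1, chrX:56786303-56786327, plus strand: tgtgtcagTGGACTTTGtgtttgtt
Pilrb2, chr5:137871870-137871894, minus strand: ggctgggcCAAAGTCCAgttatgtt
Pipox, chr11:77893841-77893865, minus strand: agtttagcTGGACTTTGcctccctc
Slc3a1, chr17:85028300-85028324, plus strand: tggctggaCAAAGTCCAgccatgat
Ptpn22, chr3:103859769-103859793, plus strand: agaagcagTGGACTTTGcttcctct
The first 3 belong to related cytochrome P450 genes of chromosome 19, and their log2 differences were -5.47 (Cyp2c68), -4.43 (Cyp2c67) and -3.82 (Cyp2c65). Near-identical genes of this family can share probe signal. Pilra and Pilrb1, neighbours of Pilrb2, carry the same 25 letters, and the 3 receptor genes differed by -1.32 (Pilra), -1.24 (Pilrb1) and -1.55 (Pilrb2). The others lower in AGR cells were the LIM protein gene Fhl1 (-2.98), the amino acid transporter gene Slc3a1 (-1.08) and the oxidase gene Pipox (-1.17). Ptpn22, a phosphatase gene of lymphocytes, was the 1 that was higher, by 3.72 on the log2 scale. All 10 had a limma adjusted p of 0.0013 (Slc3a1) or less. The 9 sites lie at separate positions, but several belong to related genes with like letters, so they are not independent.

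The C/EBP motif was in 17.9% of windows of lower DEGs, against 10.5% of windows of higher DEGs, and the FOXA motif in 11.7% against 6.91%. For the LRH-1 motif these shares were 1.38% and 0.329%, and for the FXR motif 1.38% and 1.32%. The LRH-1 matches were 4 of 290 windows of lower DEGs and 1 of 304 windows of higher DEGs. In windows of all measured genes the shares were 9.75% for C/EBP, 7.18% for FOXA, 1.19% for LRH-1 and 0.761% for FXR. These shares are descriptions.

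The genes whose pattern over the 6 arrays was most like that of Hnf4a, by the root mean square distance after each gene was centred on its own mean, were Sprr2g (0.032), Gjb1 (0.034) and Pipox (0.047). Sprr2g, a cornified envelope gene, differed by -1.17, Gjb1, the gap junction gene of hepatocytes, by -1.18, and Pipox, a peroxisomal oxidase gene, by -1.17. Likeness here rests on 6 arrays, and differences near that of Hnf4a follow from the ranking itself. Genes starting Gm or ending Rik, and Olfr, Vmn, Mir and Snor genes, were left out of the ranking.

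Neighbours on the chromosome did not share the members' direction as a block. Hnf4a and Foxa2 both lie on chromosome 2, and Foxa3 and Cebpa both on chromosome 7. For each member the 5 nearest measured genes on each side were taken in the RefSeq order, with 5 in all for Hnf4g. Of these 75 genes, 9 were lower and 13 higher by limma at an adjusted p under 0.05, and their median log2 difference was 0.00. Among all genes, 11.6% were called lower and 12.6% higher. Around Hnf4a, 3 of 10 were lower (R3hdml, Fitm2 and Serinc3), 1 was higher (Ada), and the median was -0.06. The antisense gene Hnf4aos, next to Hnf4a, had means of 7.40 in AGR cells and 7.45 in NME cells (log2 difference -0.05, limma adjusted p = 0.616). Around Cebpa, 3 of 10 were lower (Cebpg, Pepd and Rhpn2), 1 was higher (Kctd15), and the median was -0.02. Around Nr5a2, 1 was lower and 4 were higher, with a median of 0.14, so that this member went against most of its called neighbours. The genes named here beside Cebpg were chosen after their values were seen.

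**Figure D4:**
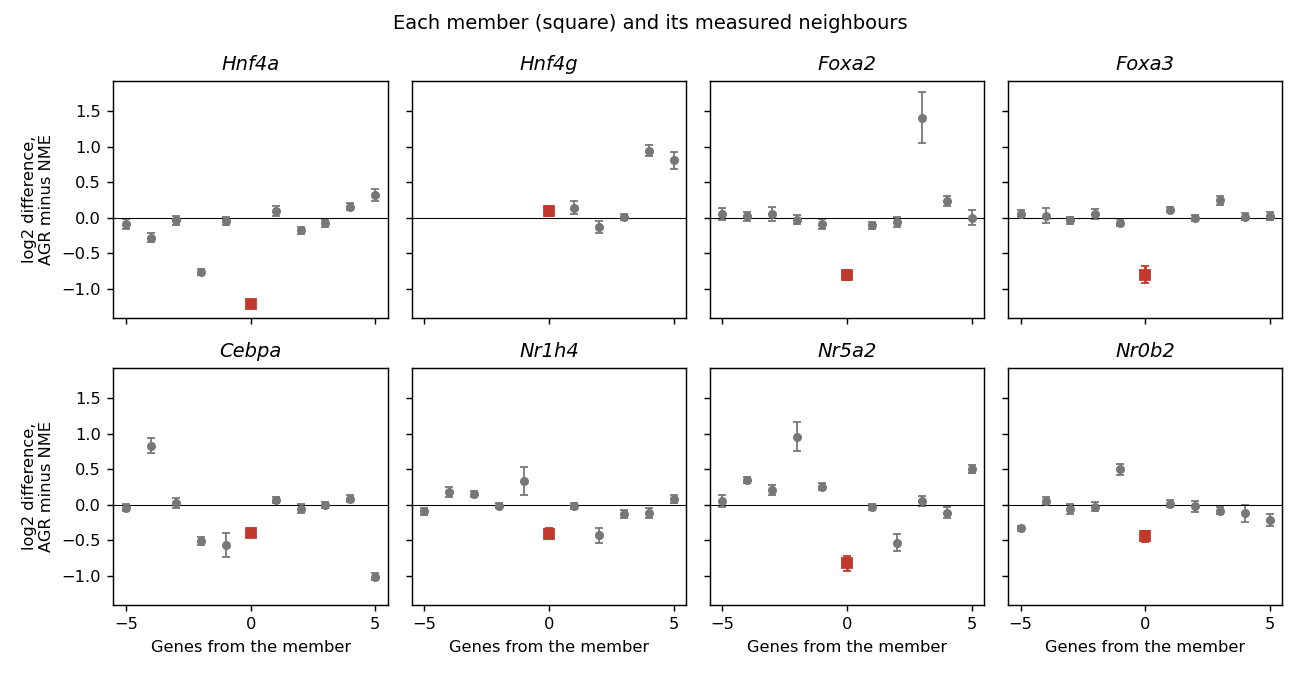
Log2 difference (AGR minus NME, with its SE) of each member (red square) and of its measured neighbours (grey), against the number of genes from the member in the RefSeq order. The neighbours scatter around 0, with medians between -0.06 for Hnf4a and 0.15 for Hnf4g.

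Some markers of liver and gut epithelium were lower in AGR cells, as 7 of the members were. Of 18 measured hepatocyte markers, 9 were called lower by limma (50%, beside 11.6% of all genes), 1 (Apob) was called higher and 8 were not called. Their median log2 difference was -0.18, and their summed intensity ranged from 7410.0 to 7552 in AGR cells and from 22403 to 25078 in NME cells. Alb, Ttr, Trf and Fgb (a fibrinogen chain, -3.03) had the largest differences. Yet the defining hepatocyte genes Tat, Ahsg, Cyp2e1, Cyp3a11 and Tdo2 were at or below the dim level in both lines and were not called. Fgg was also at or below it in both lines, and its lower call (-0.27) was lost under 4 of 14 other settings. Of 16 gut markers, 7 were lower (43.8%) and 0 higher by limma (1 higher at an unadjusted p under 0.05) and 9 were not called. The median of the gut markers was -0.07, with sums from 9816 to 10353 in AGR cells and from 21093 to 22505 in NME cells. Lgals4, a galectin of gut epithelium, was at least 45.2-fold higher in NME cells, and the microvillus gene Vil1 (-1.28), the keratin Krt20 (-0.80) and the lipid carrier Fabp2 (-0.60, at or below the dim level in both lines) were lower too. The gut genes Sis, Isx, Fabp1, Lgr5 and Olfm4 were at or below the dim level in both lines. Named after its values were seen, the gut marker Cdh17 was called lower too (-0.48). It stayed far above the dim level, at 12.07 in AGR cells and 12.55 in NME cells. The part of these markers in the members' differences was not tested. In cultures measured in bulk, fewer cells that express a gene and less RNA per cell cannot be told apart.

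Mammary markers were checked against the label of the lines. Of 18 measured, 2 were lower (the keratin Krt19, -1.04, and E-cadherin, Cdh1, -0.60), 1 was higher (Gata3, a luminal regulator, 0.56, lost under 1 of 15 other settings), and the sums ranged from 45549 to 46831 in AGR cells and from 57165 to 57837 in NME cells. The value of Gata3 was the same, 8.21, on all 3 NME arrays. The luminal keratins were bright in both lines, Krt8 with 14.13 ± 0.05 in AGR cells and 14.23 ± 0.02 in NME cells and Krt18 with 13.58 ± 0.03 in AGR cells and 13.63 ± 0.01 in NME cells (SD, n = 3 each). The epithelial gene Epcam and the mammary genes Elf5, Csn2, Pgr and Cldn7 were at or below the dim level in both lines. Of the other cell types, fibroblast markers held 1 higher gene of 9 (Pdgfra, 0.39), with sums from 1813 to 1936 in AGR cells and from 1775 to 1956 in NME cells. Immune markers held 2 higher genes of 7 (Cd68, 0.96, and Csf1r, 0.28, the second lost under 6 of 15 other settings), with sums from 1299 to 1349.6 in AGR cells and from 1009 to 1056 in NME cells. Ptprc, Adgre1, Itgam and Lyz2 were at or below the dim level in both lines. Of 5 endothelial markers 0 were called by limma (0 also at an unadjusted p under 0.05), with sums from 673 to 708 in AGR cells and from 678 to 762 in NME cells, and of 6 adipocyte markers Cidec was lower (-1.28) and Pparg higher, with sums from 2904 to 3334 in AGR cells and from 3084 to 3152 in NME cells.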

How the data were processed

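Total RNA of AGR and NME cells, 3 arrays each, had been labelled with biotin and hybridized by the authors. What the authors deposited are linear intensities of 35557 probe sets. The submitters' processing notes name MAS5 without a version, and because this array type has no mismatch probes, which MAS5 needs, the normalization behind the values is unknown. Column medians lay between 190.4 and 200.8. No counts or detection calls were used. Precision is limited by having 3 arrays a line.

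Log2 was taken with no offset. Genes were named from the platform annotation, where 21789 probe sets carried 1 symbol, 1621 several and 12147 none, and 21698 were matched by gene ID to RefSeq (GRCm38.p6). The brightest probe set stood for a gene. All 19938 genes were fitted with limma 3.58.1 (lmFit and eBayes, R 4.3.3), without covariates, with Benjamini-Hochberg adjustment of p-values over all of them. The script was tested on simulated data. Genes were called at an adjusted p under 0.05, and DEGs also needed a fold change above 2. Where the AGR mean was at or below the dim level, each AGR array was raised to that level to give a bound on the fold. The filter on dim genes, used as an alternative, was stricter than the dim level. It also left out Slc10a2, Fetub and Cps1, whose NME arrays were all above that level. Motifs were searched in all RefSeq promoter windows of 300 bases.

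The members and gene lists were chosen with earlier results of these data known. Named genes were the members, in each list the 4 called genes with the largest fold change in the main direction, up to 2 in the other and all where 5 or fewer were called, with Foxa1, Rxra, Nr2f1 and Nr2f2 regardless. The alternatives were quantile normalization, median centring, an offset of 16, a filter on dim genes, the mean of a gene's probe sets, robust eBayes with a trend, the methods' two-sided test, a block for the replicate number, and leaving out each array.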

Additional observations from a re-analysis of the deposited data

How the results depend on the processing

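The differences of all 8 members kept their direction under every alternative in which they were fitted, with ranges of -1.24 to -1.17 for Hnf4a, 0.02 to 0.15 for Hnf4g, -0.86 to -0.75 for Foxa2, -0.89 to -0.67 for Foxa3, -0.42 to -0.36 for Cebpa, -0.47 to -0.34 for Nr1h4, -0.92 to -0.73 for Nr5a2 and -0.51 to -0.39 for Nr0b2. For the 7 members whose arrays did not overlap, leaving out 1 array could not reverse the direction. Their kept direction is therefore only a description. The filter on dim genes left 6 members, without Hnf4g and Nr0b2. Leaving out each array in turn gave 279 to 321 DEGs lower and 267 to 347 higher (299 of each with all arrays), 1582 to 2573 genes lower and 1755 to 2783 higher at an adjusted p, and 26 to 37 list genes lower and 10 to 13 higher. Neighbouring genes called ranged from 4 to 10 lower and from 7 to 13 higher when 1 array was left out, against 9 and 13 with all, and the methods' two-sided test, adjusted, called 5 and 8. The calls were fewest without AGR replicate 3 for lower neighbours (4) and without NME replicate 1 or 2 for higher ones (7). The cause was not tested. Same-numbered arrays did not deviate together in every pair (correlations of -0.13, 0.33 and 0.26), so the numbers were not taken as pairs. With the replicate number as a block there were 299 DEGs lower and 300 higher, 598 of them shared with the fit without it. Cebpg and Atf5 lost their calls without any 1 array other than AGR replicate 2 (adjusted p up to 0.178 and 0.179 over all alternatives), as did Csf1r (0.122). Pparg did so without AGR replicate 3, NME replicate 2 or NME replicate 3 (up to 0.0774), and Pdx1 without NME replicate 1 (up to 0.0772). Quantile normalization shifted the median gene by 0.02 and median centring by 0.03. Signals at or below the dim level, as for Hnf4g and Nr0b2, limit what can be said of those genes.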
